A study of Homo sapiens
Rattus norvegicus and Homo sapiens with 10 samples.

Results

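Serotonin receptors and the proteins that take up and break down monoamines were described in brain grafts of the human glioblastoma line U251N, an established cell line. The 7 genes were the receptors HTR7, HTR1D, HTR2A and HTR2B, the transporter SLC29A4 and the oxidases MAOA and MAOB, out of 62754 genes in the deposited table. They were picked by symbol with their values in all 4 groups of libraries already known, so their levels and differences are given as a description, and no test of them supports a finding.

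Serotonin receptors of the HTR1, HTR2, HTR4, HTR5, HTR6 and HTR7 classes are G protein-coupled receptors, while HTR3 receptors are ion channels. HTR7 couples to Gs and raises cyclic AMP, HTR1D couples to Gi and lowers it, and HTR2A and HTR2B couple to Gq and release calcium through phospholipase C. Serotonin that has acted is carried into cells, by the high-affinity transporter SLC6A4 in serotonergic neurons and by low-affinity carriers such as SLC29A4 elsewhere, and is then oxidised by monoamine oxidase on the outer mitochondrial membrane. MAOA prefers serotonin and noradrenaline. MAOB is known in brain mainly from astrocytes and serotonergic neurons.

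RNA was sequenced from 3 recurrent tumours, 3 primary tumours, 3 brains labelled as controls and 1 culture of the line. All tumours and controls came from brains of adult female athymic RNU/RNU rats, which lack T cells, and the tumours grew from U251N cells injected into the brain. Recurrent tumours had grown back after laser interstitial thermal therapy (LITT), which heats a tumour through a laser fibre under imaging guidance, and primary tumours had received no ablation. The controls share 1 treatment label, and the series text calls control replicate 1 a failed graft and replicates 2 and 3 procedural controls, without saying whether the last 2 had received cells. The authors kept controls and culture out of their own contrast, per the labels. The culture was grown in vitro without treatment and is a single library of a single line. The labels do not state that each library came from its own rat, so p-values measure the spread between these libraries, which may in part be technical.

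Estimated counts totalled 20321590 to 25299612 in recurrent tumours, 25316552 to 39714714 in primary tumours, 1358753 to 4158124 in controls and 65058642 in the culture. Graft reads made up 29.4% to 42.7% of recurrent, 42.5% to 64.4% of primary and 0.33% to 4.9% of control libraries, per the labels. Structural small RNAs took 92.6%, 89.7% and 31.3% of the counts in control replicates 1, 2 and 3, against 6.04% to 14.1% in the tumours. Levels are given as CPM, the count scaled to a library total of 1000000, unless TMM-scaled CPM are named. Of the markers listed for the line, VIM stood at 2918 ± 202 TMM-scaled CPM in recurrent and 3666 ± 166 in primary tumours (SD, n = 3 each), and OLIG2 had a mean of 0 in recurrent and 0.0246 TMM-scaled CPM in primary tumours. The 10 markers of the line took 0.948% to 1.06% of the counts outside structural small RNAs in recurrent and 0.973% to 1.08% in primary tumours, 0.137%, 0.524% and 1.11% in control replicates 1, 2 and 3, and 1.32% in the culture. The library labelled control replicate 3 thus held these markers at the level of the tumours. The 5 markers of serotonergic neurons summed to 3.00 to 7.83 CPM in recurrent and 1.70 to 3.94 CPM in primary tumours, against 5.30 CPM in the culture. Nearly all of it was GATA3 and LMX1B, which the culture also held, while FEV and SLC6A4 had 0 counts in all 6 tumours and TPH2 had a mean of 0 in recurrent and 0.00819 TMM-scaled CPM in primary tumours.

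The 7 genes lie apart in the genome, except for the oxidases. On GRCh38, in GENCODE release 29, HTR7 lies on chromosome 10 (90740823 to 90857698, minus strand), HTR1D on chromosome 1 (23191895 to 23194729, minus), HTR2A on chromosome 13 (46831550 to 46897076, minus) and HTR2B on chromosome 2 (231108230 to 231125118, minus). SLC29A4 lies on chromosome 7 (5274369 to 5306870, plus). MAOA (43654907 to 43746824, plus) and MAOB (43766611 to 43882447, minus) are neighbours on chromosome X, with 19787 bases between their ends. HTR2B lies within the span of PSMD1, a proteasome subunit gene on the opposite strand. The end of SLC29A4 overlaps the coding gene TNRC18, and HTR2A overlaps the antisense gene HTR2A-AS1, both on the opposite strand. HTR2A-AS1 had 0 counts in every library, and the libraries were stranded.

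Sequence shared with other annotated human genes was looked for in windows of 100 bases. None of the 2147 to 6091 windows in the annotated transcripts of any of the 7 genes occurred letter for letter in a transcript of another gene. Rat transcripts were not searched, and near matches were not counted. HTR7 has a transcribed processed pseudogene on chromosome 12, HTR7P1, whose transcript was 90.8% identical to the HTR7 coding sequence over 1272 aligned bases. The alignment also had 11 gaps, which count neither in this identity nor in the choice of the stretch below. Of the ungapped stretches of 60 aligned bases, tried at regular steps, the one with the most differences is shown. Capitals mark the 14 bases at which the pair differ, and the HTR7 stretch runs from coding base 602 to 661:
HTR7: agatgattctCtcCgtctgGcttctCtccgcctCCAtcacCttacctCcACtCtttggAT
HTR7P1: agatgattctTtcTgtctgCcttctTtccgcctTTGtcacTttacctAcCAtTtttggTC

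HTR7 was the serotonin receptor gene with the highest level in the tumours. It had 398, 483 and 525 counts in recurrent replicates 1 to 3, which is 19.6, 19.1 and 21.0 CPM. Primary replicates 1 to 3 had 433, 315 and 704 counts, or 17.1, 12.4 and 17.7 CPM, and the culture had 1639 counts, or 25.2 CPM. All recurrent tumours lay above all primary tumours, by a narrow margin, and the culture lay above every tumour. The TMM-scaled means were 19.8 ± 1.34 CPM in recurrent and 15.8 ± 2.15 CPM in primary tumours (SD, n = 3 each), a log2 fold change of 0.33 (SE 0.16). Its pseudogene HTR7P1 stood at 1.42 ± 0.41 CPM in recurrent tumours, 1.01 ± 0.293 CPM in primary tumours (SD, n = 3 each) and 1.17 CPM in the culture. With its counts added to those of HTR7, an alternative added once the data had been seen, its log2 fold change was 0.34.

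HTR1D was higher in each recurrent tumour than in any primary tumour, and higher in all 6 tumours than in the culture. Recurrent replicates 1 to 3 had 110, 283 and 192 counts, or 5.41, 11.2 and 7.70 CPM. Primary replicates 1 to 3 had 93, 69 and 106 counts, or 3.66, 2.73 and 2.67 CPM, and the culture had 124 counts, or 1.91 CPM. Recurrent replicate 2 was the highest, and the primary tumours lay close together. The TMM-scaled means were 8.01 ± 2.63 CPM in recurrent and 3.03 ± 0.499 CPM in primary tumours (SD, n = 3 each), a log2 fold change of 1.40 (SE 0.32).

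HTR2A showed the widest gap between the tumour groups among these genes. Recurrent replicates 1 to 3 had 3, 3 and 6 counts, or 0.148, 0.119 and 0.241 CPM, and primary replicates 1 to 3 had 32, 89 and 133 counts, or 1.26, 3.52 and 3.35 CPM. The culture had 25 counts, or 0.384 CPM, between the groups. Summed over each group, HTR2A had 12 counts in recurrent tumours (exact Poisson 95% interval 6.2 to 21.0) and 254 in primary tumours (224 to 287). Such intervals, and the floors given for counts of 0, cover counting error alone and leave out the spread between libraries. Copies of 1 molecule made by PCR were not told apart, so even the counting error may be understated. The TMM-scaled means were 0.169 ± 0.0649 CPM in recurrent and 2.75 ± 1.34 CPM in primary tumours (SD, n = 3 each), a log2 fold change of -3.99 (SE 0.66). Only 6 of the 15928 genes tested had a lower log2 fold change. HTR2A passed edgeR's filter on low counts only through its level in primary tumours. Its direction and rank were thus in part fixed by that filter. In bulk tissue, fewer cells of a kind that makes the RNA and less RNA per cell cannot be told apart.

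HTR2B, the receptor of serotonin on heart valve and vascular cells, had no count in any of the 10 libraries. The level that 0 counts still allow, taken as 3 counts of the library, was 0.0755 to 0.148 CPM in the tumours, 0.722 to 2.21 CPM in the controls and 0.0461 CPM in the culture. Most of the total in control replicates 1 and 2 was structural small RNAs. Their floor for other RNAs is thus far higher than stated, and it is not comparable with that of the tumours. The other 13 serotonin receptor genes were at or near 0 as well. Of these, 11 had no count in any tumour, HTR1F had a mean of 0.0282 TMM-scaled CPM in primary tumours and HTR4 of 0.0127 TMM-scaled CPM in recurrent tumours. In the culture, HTR1E stood at 0.123 CPM.

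**Figure D1:**
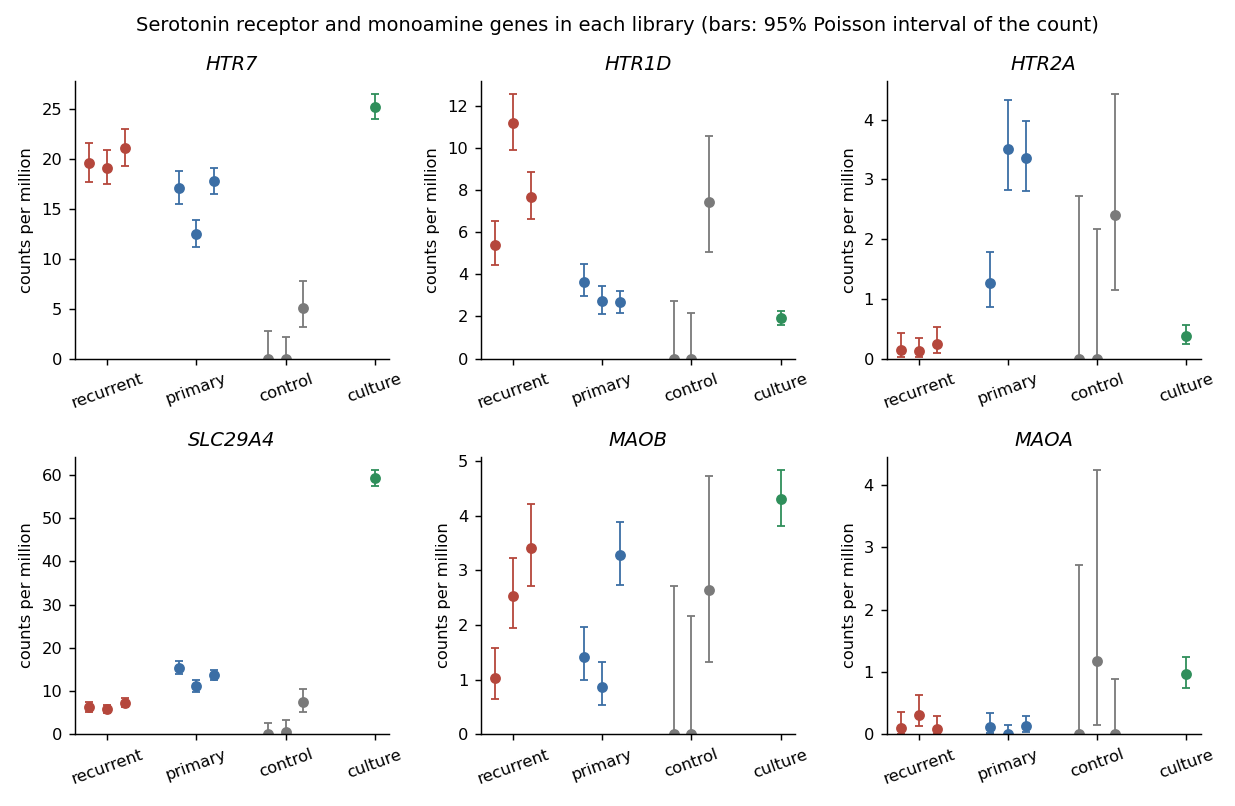
Levels in CPM of the library total, on the axis of each panel, for HTR7, HTR1D, HTR2A, SLC29A4, MAOB and MAOA in each library, with recurrent tumours, primary tumours, controls and the culture from left to right; each point is 1 library and each bar the exact Poisson 95% interval of its count. HTR2A lies at 0.119 to 0.241 CPM in recurrent tumours against 1.26 to 3.52 CPM in primary tumours, and SLC29A4 at 5.77 to 7.22 against 11.1 to 15.4 CPM, while the culture has 59.2 CPM of SLC29A4.

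The mix of receptor transcripts differed between the groups once counts were divided by exon length. HTR7 made up 69.3% ± 8.02 of the length-scaled signal of HTR7, HTR1D and HTR2A in recurrent tumours and 76.1% ± 3.99 in primary tumours (SD, n = 3 each), against 91.6% in the culture. HTR1D made up 30.4% ± 8.1 in recurrent and 16.3% ± 2.88 in primary tumours (SD, n = 3 each), against 7.7% in the culture. For HTR2A the shares were 0.2% to 0.5% in recurrent tumours, 3.2% to 11.2% in primary tumours and 0.8% in the culture. Such shares do not depend on the scaling between libraries.

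Among the proteins that handle monoamines, SLC29A4, the plasma membrane monoamine transporter, was lower in recurrent than in primary tumours and far lower in every tumour than in the culture. Recurrent replicates 1 to 3 had 127, 146 and 180 counts, or 6.25, 5.77 and 7.22 CPM, and primary replicates 1 to 3 had 391, 281 and 540 counts, or 15.4, 11.1 and 13.6 CPM. The culture had 3855 counts, or 59.2 CPM. The ranges of the groups did not touch, and the highest tumour stood 3.85-fold below the culture. The TMM-scaled means were 6.39 ± 0.827 CPM in recurrent and 13.4 ± 1.6 CPM in primary tumours (SD, n = 3 each), a log2 fold change of -1.07 (SE 0.20). Against HTR7 in the same library, SLC29A4 had 30.2 to 34.3 counts per 100 HTR7 counts in recurrent tumours, 76.7 to 90.3 in primary tumours and 235 in the culture.

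MAOB varied more within the tumour groups than between them. Recurrent replicates 1 to 3 had 21, 64 and 85 counts, or 1.03, 2.53 and 3.41 CPM, and primary replicates 1 to 3 had 36, 22 and 130 counts, or 1.42, 0.869 and 3.27 CPM. The groups overlapped over nearly their whole range, and the culture, with 280 counts or 4.30 CPM, lay above every tumour. The TMM-scaled means were 2.30 ± 1.18 CPM in recurrent and 1.84 ± 1.2 CPM in primary tumours (SD, n = 3 each), and the log2 fold change was 0.32 (SE 0.58). Without recurrent replicate 3 it turned to -0.08, and with the library name prefix as a covariate to -0.81.

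MAOA, the oxidase that prefers serotonin, was close to the detection limit in the tumours. It had 2, 8 and 2 counts in recurrent replicates 1 to 3 and 3, 0 and 5 counts in primary replicates 1 to 3. Summed over each group these are 12 counts in recurrent tumours (exact Poisson 95% interval 6.2 to 21.0) and 8 in primary tumours (3.45 to 15.8), and a difference was not detectable at this depth. The culture had 63 counts, or 0.968 CPM, against 0 to 0.316 CPM in the tumours. On the length-scaled measure, MAOA stood at 0.0223 ± 0.019 CPM per kilobase of exon and MAOB at 0.722 ± 0.391 in the tumours (SD, n = 6), and MAOA at 0.175 and MAOB at 1.49 in the culture.

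Ordered by CPM per kilobase of exon, recurrent tumours ran HTR7 at 6.36 ± 0.325, HTR1D at 2.86 ± 1.02, SLC29A4 at 1.1 ± 0.127 and MAOB at 0.804 ± 0.415 (SD, n = 3), followed by HTR2A at 0.0300 ± 0.0113 and MAOA at 0.0298 ± 0.0238 (SD, n = 3 each). Of these neighbours, SLC29A4 and MAOB overlapped, as did HTR2A and MAOA. In primary tumours HTR7 stood at 5.03 ± 0.919, SLC29A4 at 2.30 ± 0.372, HTR1D at 1.06 ± 0.197, MAOB at 0.641 ± 0.436, HTR2A at 0.482 ± 0.223 and MAOA at 0.0147 ± 0.0128 (SD, n = 3). There the ranges of HTR1D and MAOB overlapped, as did those of MAOB and HTR2A. In the culture SLC29A4, at 10.2, stood above HTR7, at 8.05 CPM per kilobase. The order of SLC29A4 and HTR1D thus differed between the tumour groups.

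The comparison named in the series design asked how recurrent tumours differed from primary ones. Of the 7 genes, 5 passed edgeR's filter on low counts, HTR2A only through its level in primary tumours, and HTR2B and MAOA did not. In edgeR's quasi-likelihood test over 15928 genes, 0 of the 5 passed an adjusted p of 0.05, against 0.00628% of all genes tested. The adjusted p were 0.224 for HTR2A, 0.267 for SLC29A4, 0.369 for HTR1D, 0.620 for HTR7 and 0.882 for MAOB. At an unadjusted p under 0.05 edgeR had 3 of the 5, against 8.38% of all genes, and under 0.01 the same 3, HTR2A, HTR1D and SLC29A4, against 1.79%. DESeq2 called 3 of the 5, against 0.608% of the genes to which it gave an adjusted p, namely HTR2A (adjusted p = 5.54e-05), SLC29A4 (0.00726) and HTR1D (0.0129). The groups did not overlap in 4 of the 5, against 15.4% of all genes. HTR7 and HTR1D lay higher in recurrent tumours, against 7.94% of all genes, and HTR2A and SLC29A4 lay lower, against 7.42%. The genes had been chosen with this contrast known, so nothing is read from these counts. Over all genes tested the median log2 fold change was -0.007.

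**Figure D2:**
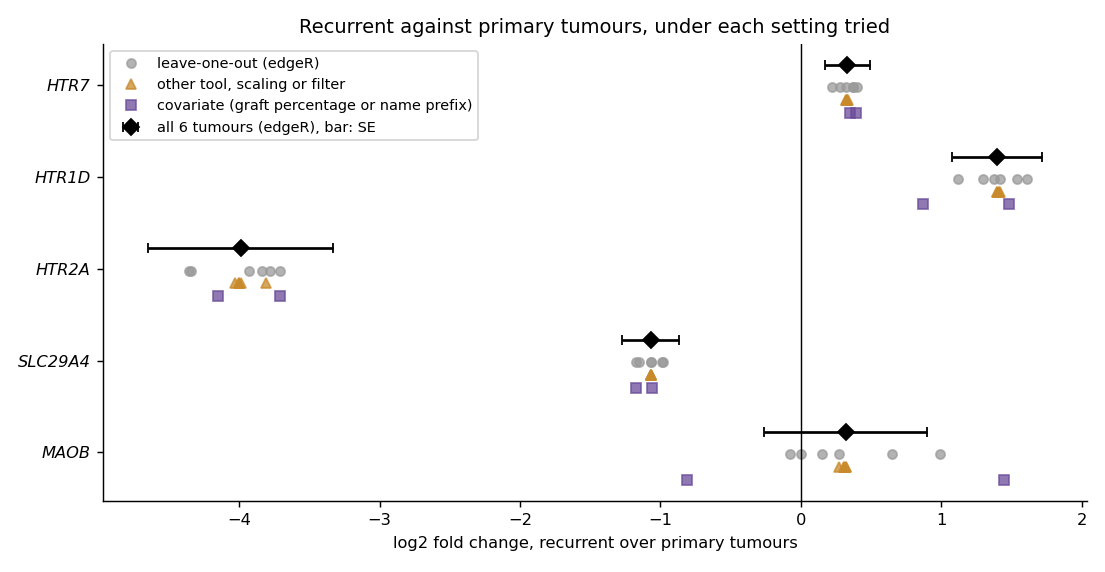
Log2 fold change of recurrent over primary tumours for the 5 genes that passed the filter on low counts; diamonds are edgeR on all 6 tumours with the SE as a bar, circles leave out 1 tumour each, triangles are other tools, scalings or filters, and squares add a covariate. HTR2A stays between -4.36 and -3.71 and SLC29A4 between -1.17 and -0.98, HTR1D lies between 0.87 and 1.61, and MAOB runs from -0.81 to 1.45 across 0.

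Graft percentages were lower in recurrent tumours, at 35.1% ± 6.84, than in primary tumours, at 50.8% ± 11.9 (SD, n = 3 each). Adjusted for the graft percentage, the log2 fold change was -3.71 for HTR2A, -1.17 for SLC29A4, 1.48 for HTR1D, 0.39 for HTR7 and 1.45 for MAOB. Among the tumours, the library names of recurrent replicates 2 and 3 start with another prefix, and the labels do not say what it stands for. Adjusted for that prefix, recurrent replicate 1 alone stands against the primary tumours, and HTR1D stood at 0.87, HTR2A at -4.15 and SLC29A4 at -1.06. The 8 astrocyte markers, like HTR2A and SLC29A4, had a lower sum in recurrent tumours. They summed to 689 to 818 CPM in recurrent and 997 to 1145 CPM in primary tumours, against 321 CPM in the culture, with 6 of 6 tested members lower, 0 of them called by edgeR and 2 at an unadjusted p under 0.05, against 8.38% of all genes. The groups did not overlap for GFAP and overlapped for the other tested markers. Under the filter, AQP4 was at 0 in all recurrent tumours and at 0.2543 ± 0.2555 TMM-scaled CPM in primary tumours (SD, n = 3 each). ALDH1L1, also under the filter, went the other way, at 0.204 ± 0.3106 in recurrent and 0.05133 ± 0.0889 TMM-scaled CPM in primary tumours (SD, n = 3 each). The part of astrocytes in the result was not tested. The 10 neuron markers summed to 769 to 1023 CPM in recurrent and 873 to 1433 CPM in primary tumours, most of it NEFL, which the culture also held at 477 CPM. Of 5 tested, 2 were higher and 3 lower, with 0 called by edgeR and 1 at an unadjusted p under 0.05. That one, RBFOX3, stood at 2.60 ± 2.52 in recurrent and 0.618 ± 0.617 TMM-scaled CPM in primary tumours (SD, n = 3 each). It had 0 counts in the culture and 715 summed over the controls, and GAD2 had 0 counts in all tumours. The 10 neuron markers together had 546, 396 and 2603 counts in control replicates 1, 2 and 3. The part of neurons in the results was not tested either.

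The comparison with the culture asked how growth in the brain went with the line's levels, and with 1 culture library it has no replicate check and no test. Of the 5 members with a mean of at least 1 CPM over the 7 libraries, SLC29A4 lay at least 2-fold below the culture in all 6 tumours, as did 3.47% of 14110 genes, and 0 lay at least 2-fold above it in all 6, as did 2.3%. The median log2 ratio of tumours over culture was -0.06 over these genes. For the mean of the 6 tumours against the culture, on a scale of CPM + 0.5, the log2 ratio was -2.52 for SLC29A4, -0.89 for MAOB, -0.49 for HTR7, 1.33 for HTR1D and 1.13 for HTR2A. The last of these joins unlike groups, since recurrent tumours gave -0.40 and primary tumours 1.86. MAOA was under the level filter and stood at -1.24, a value that ran from -2.26 with 0.1 CPM added to -0.81 with 1 CPM added. The tumour groups share this culture, so their distances from it are not independent of each other.

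**Figure D3:**
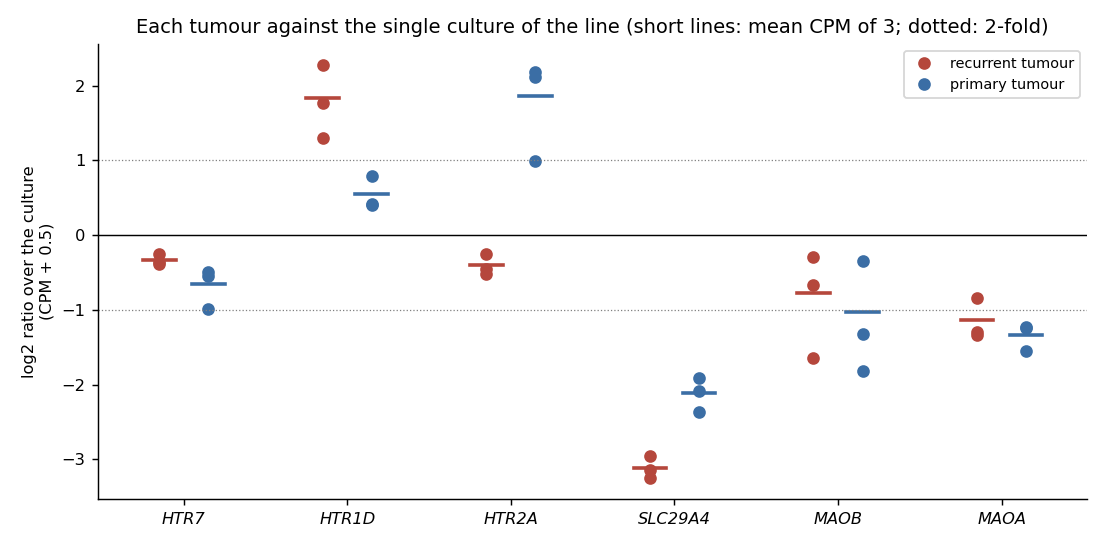
Log2 ratio of each tumour over the single culture, on CPM + 0.5, for HTR7, HTR1D, HTR2A, SLC29A4, MAOB and MAOA; points are tumours, short lines the ratio of the mean CPM of 3, and dotted lines mark 2-fold. All tumours lie below the culture for HTR7, SLC29A4, MAOB and MAOA and above it for HTR1D, while HTR2A has the recurrent tumours below and the primary tumours above.

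The libraries labelled as controls differed among themselves in these genes. Control replicates 1 and 2 held 0 counts of HTR7, HTR1D, HTR2A, HTR2B and MAOB, and control replicate 2 held 1 count of SLC29A4 and 2 of MAOA. Outside structural small RNAs these libraries had 100750 and 175786 counts. At the levels of the tumours, few or no counts of any member, HTR7 included, would be seen in them. Control replicate 3, with 4.9% of graft reads, held 21 counts of HTR7, 31 of HTR1D, 10 of HTR2A, 31 of SLC29A4 and 11 of MAOB among 2857029 counts outside structural small RNAs. It had 148 counts of HTR1D and 47.6 of HTR2A per 100 counts of HTR7, above the highest tumour in both, at 58.6 and 28.2. With the line's markers at 1.11% of its counts outside structural small RNAs, against 0.948% to 1.08% in the 6 tumours, its values are no measure of tissue free of the line, and they are kept apart from those of replicates 1 and 2.

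The host share of a gene in a tumour was estimated as the median count per host read over the controls, multiplied by the host reads of the tumour. It came to 0% for HTR7, HTR1D, HTR2A, MAOA and MAOB, and to 1.55% to 6.67% for SLC29A4, where it rests on 1 count in control replicate 2. Without control replicate 1 or 2, so that control replicate 3 with its markers of the line enters the median, the share over tumours had a median of 8.7% for HTR7, 43.9% for MAOB and 51.7% for HTR1D. For SLC29A4 that median was 29.9% without control replicate 1 and 27.8% without control replicate 2. For HTR2A the value was 205%, above what a share can be, with 13.4% to 611% over the single tumours. For MAOA it was 287% without control replicate 1 or 3, from 2 counts in control replicate 2. The host part of these genes was not bounded by 3 controls that differ this much.

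Genes around these 7 in monoamine signalling and metabolism were read from 8 lists with 119 genes, of which 62 passed the filter. No gene of these lists was called by edgeR or DESeq2, against 0.00628% and 0.608% of all genes. At an edgeR unadjusted p under 0.05 stood 5 of the 62, or 8.06%, against 8.38% of all genes. Of the 62, 29 had a higher and 33 a lower mean estimate in recurrent tumours, with a median log2 fold change of -0.01 against -0.007 over all genes. The groups did not overlap in 8 of the 62, or 12.9%, against 15.4% of all genes tested.

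The enzymes on the way from tryptophan to serotonin were at or near 0, and 6 of the 12 genes of synthesis were tested, 3 higher and 3 lower. TPH1, which hydroxylates tryptophan outside the brain, stood at 0.0635 ± 0.11 TMM-scaled CPM in recurrent and 0.322 ± 0.197 in primary tumours (SD, n = 3 each), and DDC, the decarboxylase that makes serotonin and dopamine, and DBH, which makes noradrenaline, had 0 counts in all 6 tumours. Enzymes of the cofactor tetrahydrobiopterin made up most of the tested genes of the list. They were led by PCBD1, which recycles the cofactor, at 20.1 ± 2.28 in recurrent and 21.7 ± 2.11 TMM-scaled CPM in primary tumours (SD, n = 3 each). HDC, which makes histamine, stood at 1.79 ± 1.5 in recurrent and 0.629 ± 0.437 TMM-scaled CPM in primary tumours (SD, n = 3 each), the largest difference of the list, 1.48 (SE 0.93) on the log2 scale.

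Of 11 other carriers of monoamines, 2 were tested, both with a higher mean in recurrent tumours. SLC6A4, SLC6A2, SLC6A3, SLC18A1, SLC18A2 and SLC22A3, the high-affinity, vesicular and organic cation carriers, had 0 counts in all 6 tumours. The relatives of SLC29A4, SLC29A1 and SLC29A3, which carry nucleosides, were detected. SLC29A1 stood at 10.7 ± 1.32 in recurrent and 10.2 ± 1.06 TMM-scaled CPM in primary tumours, and SLC29A3 at 2.70 ± 0.284 in recurrent and 1.12 ± 0.619 in primary tumours (SD, n = 3 each). The log2 fold change of SLC29A3 was 1.28 (SE 0.50, edgeR adjusted p = 0.572).

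Breakdown enzymes other than monoamine oxidase were well detected, with 12 of 17 tested, 2 higher and 10 lower. The highest mean was that of ALDH7A1, an aldehyde dehydrogenase, at 87.8 ± 11.9 in recurrent and 90.9 ± 12.2 TMM-scaled CPM in primary tumours (SD, n = 3 each). ALDH2, the mitochondrial enzyme that oxidises the aldehydes left by monoamine oxidase, had the largest difference, at 16.9 ± 2.54 in recurrent and 11.4 ± 0.926 in primary tumours, with a log2 fold change of 0.57 (SE 0.18, edgeR adjusted p = 0.521). Signalling partners of the receptors were tested for 25 of 29 genes, 15 higher and 10 lower, with GNAS, the Gs subunit to which HTR7 couples, at 623 ± 39.3 in recurrent and 686 ± 19.4 TMM-scaled CPM in primary tumours. PLCB1, a phospholipase C downstream of Gq, stood at 13.2 ± 2.56 in recurrent and 20.1 ± 4.76 in primary tumours (log2 fold change -0.61, SE 0.22, edgeR adjusted p = 0.545). GNAO1, a subunit of the Gi and Go class, had the largest difference, 1.05 (SE 0.75). Of 19 receptors for other monoamines 4 were tested, 3 higher and 1 lower, led by the histamine receptor HRH1 at 16.5 ± 1.28 in recurrent and 18.1 ± 2.98 TMM-scaled CPM in primary tumours (SD, n = 3 each), and the largest difference was that of the adrenergic receptor ADRA1D, 1.05 (SE 1.14).

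Known regulators of MAOA transcription were well detected, with 5 of 6 tested, 2 higher and 3 lower. SP1, an activator, stood at 145 ± 10.5 in recurrent and 130 ± 24.8 TMM-scaled CPM in primary tumours, and CDCA7L, a repressor of MAOA, at 128 ± 2.61 in recurrent and 117 ± 8.88 in primary tumours (SD, n = 3 each). SP1 also had the largest difference, 0.17 (SE 0.16). In the culture CDCA7L stood at 295 CPM. Of the kynurenine branch, which uses tryptophan in place of serotonin synthesis, 8 of 12 genes were tested, 2 higher and 6 lower, led by the aminotransferase KYAT3 at 20.5 ± 2.26 in recurrent and 22.7 ± 8.15 TMM-scaled CPM in primary tumours. The largest difference was that of KYNU, -0.74 (SE 0.81). Of the list genes, 60 had a mean of at least 1 CPM over the 6 tumours and the culture. At least 2-fold above the culture in all 6 tumours lay 2 of them, or 3.33%, against 2.3% of all 14110 genes. At least 2-fold below it lay 4, or 6.67%, against 3.47%. CDCA7L and PLCB4, a phospholipase C, were among the lower, and DRD2 and HRH1 were the higher. HRH2 and ADRA1D also lay lower, but they passed the filter on low values only through their level in the culture.

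**Figure D4:**
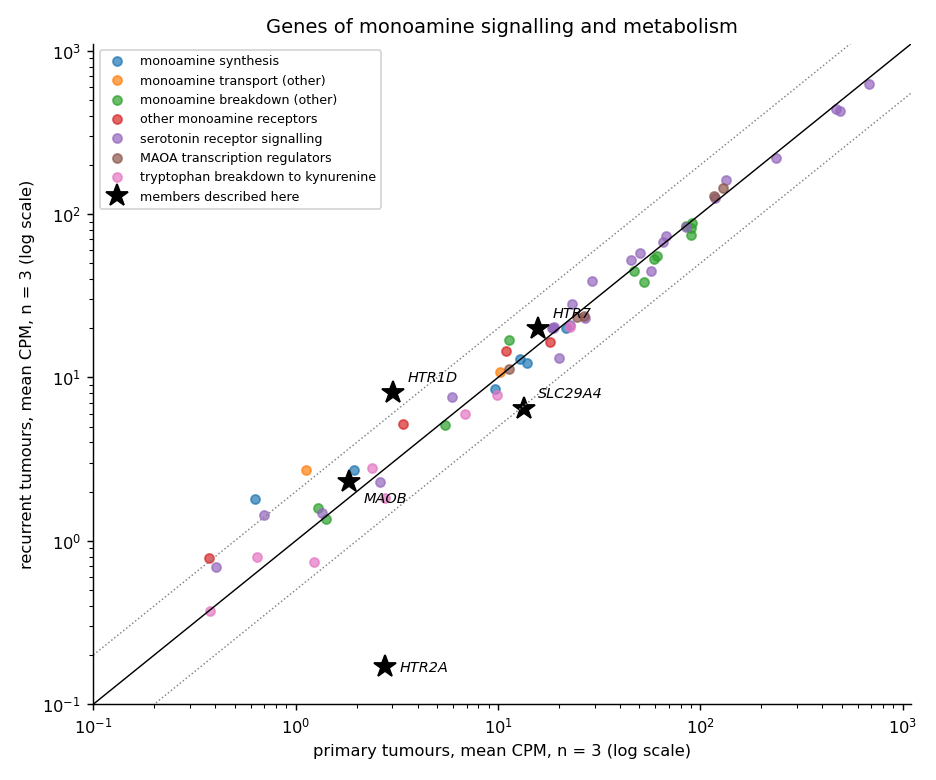
Mean TMM-scaled CPM in recurrent against primary tumours, both on log scales, for the 62 tested genes of the monoamine lists and, as stars, the 5 tested members; the solid line marks equal levels and the dotted lines 2-fold. HTR2A lies far below the diagonal, at 0.169 against 2.75 CPM, HTR1D above and SLC29A4 at the lower 2-fold line.

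The protein-coding genes whose levels followed each member most closely over the 6 tumours were named by Pearson's r of log2(TMM-scaled CPM + 0.5). This is a description over 6 libraries that share their group difference, among 13080 genes, of which 19 to 153 had an r over 0.95 with a given member. HTR1D was followed by GLDC, a glycine decarboxylase (r = 0.997), and by MUC16, a mucin (r = 0.995). HTR2A was followed by ARHGEF37 (r = 0.996), and the small GTPase RALB (r = 0.995), whose levels differed far less, at 6.66 to 7.05 CPM of ARHGEF37 in recurrent and 9.62 to 13.1 CPM in primary tumours. SLC29A4 was followed by PRELP, a leucine-rich matrix protein (r = 0.984), at 0.495 to 1.12 CPM in recurrent and 3.76 to 4.79 CPM in primary tumours. HTR7 was followed by MSANTD7 (r = 0.995) and FRYL (r = 0.994), and MAOB by the interleukin receptor chain IL13RA1 (r = 0.992) and CYP2E1, a cytochrome P450 (r = 0.986).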

How the data were processed

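RNA was measured in 10 libraries: 3 recurrent tumours, 3 primary tumours, 3 controls and 1 culture. The authors' deposited values are estimated counts per gene from Salmon, unscaled, of which 0.98% to 15.13% per library were not whole. STAR, Salmon 1.10.3, DESeq2 and the build GRCh38 are named, per the submitters' processing notes. Neither the annotation release nor the xengsort read classes behind the counts could be read from the labels. Per the labels' protocols, RNA was depleted of ribosomal RNA and libraries were reverse-stranded.

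Of the gene IDs, 58261 of 62754 matched GENCODE release 29, which gave coordinates, exon lengths, gene types and transcript sequences. The authors' release may differ. Counts were rounded, and the main test was run in edgeR 4.0.16 under R 4.3.3 (scaling by TMM, filterByExpr at its defaults, two-sided quasi-likelihood test without covariates, Benjamini-Hochberg adjustment over all genes). The SE is the size of the log2 fold change divided by the square root of F. DESeq2 1.42.0 and limma-voom (limma 3.58.1) were alternatives. The fit was tested on simulated data with changes larger than those of HTR1D and SLC29A4, so it does not speak to changes of their size. Structural small RNAs were 5691 genes by type or name. Replicates were numbered in record order and pair no samples. Host reads of a library were its count less the graft share.

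The members and gene lists were chosen with earlier results of these data known. Named in the text are the members, for each list at least the gene with the highest mean and the one with the largest difference, other list genes with a mean of at least 1 CPM in the tumours, and the 2 genes most like each member, of which 1 is not reported here. Genes named for low or 0 counts were chosen after their values were seen.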

Additional observations from a re-analysis of the deposited data

How the results depend on the processing

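Genes called between recurrent and primary tumours numbered 1 in edgeR, 105 with DESeq2, 411 with no filter on low counts, 4 with the name prefix as a covariate, and 0 with limma-voom (1412 at an unadjusted p under 0.05) or with the graft percentage as a covariate (1152). Leaving out 1 tumour gave 0 to 23 calls: 0 without primary replicate 2 (1065 at an unadjusted p under 0.05), 1 without primary replicate 1, 4 without primary replicate 3, and 23, 3 and 2 without recurrent replicates 1, 2 and 3. The log2 fold changes of HTR2A, SLC29A4, HTR1D and HTR7 kept their sign in all alternatives, and HTR2A, SLC29A4 and HTR1D passed 0.05 with DESeq2 and with no filter (adjusted p 2.61e-05 to 0.0129), and in no other alternative (adjusted p up to 0.989). HTR7 passed in none, with adjusted p from 0.588 to 0.989, and neither did MAOB, with adjusted p from 0.678 to 0.9995. MAOB turned to -0.81 with the name prefix and to -0.08 without recurrent replicate 3, and ran up to 0.99 when primary replicate 3 was left out and 1.45 under the graft covariate. The cause was not tested. Of the 119 listed genes, 0 were called in any alternative. Without a filter on low values, 493 genes lay at least 2-fold above and 3996 at least 2-fold below the culture in all 6 tumours, against 324 and 489 with it. Other scalings left SLC29A4 the only one past 2-fold in all 6 tumours among the 5 members that passed this filter. MAOA, which did not pass it, also stood at least 3.06-fold below the culture in every tumour, on few counts. The host share of SLC29A4, a median of 4.19% over tumours, was 36.0% with structural small RNAs left out and 0.489% when host reads were taken from the graft share of the other counts, a form added after the data were seen. No paired analysis was possible because the labels give the groups no shared replicate numbers. Depth limits what can be said of HTR2B, MAOA and HTR2A in recurrent tumours, and of all members in control replicates 1 and 2.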

Other observations

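Some receptors of histamine, dopamine and noradrenaline lay at least 2-fold from the culture in all 6 tumours, and they were chosen after their values were seen. Of the 60 list genes past the level filter, 3.33% lay higher in this way and 6.67% lower, against 2.3% and 3.47% of all 14110 genes. HRH2, the Gs-coupled histamine receptor, stood at 0 to 0.327 CPM in the 6 tumours and at 9.05 CPM in the culture. HRH1, the Gq-coupled histamine receptor, stood at 15.1 to 20.1 CPM in the tumours and at 7.42 CPM in the culture. DRD2, the Gi-coupled dopamine receptor, stood at 7.38 to 22.0 CPM in the tumours and at 2.01 CPM in the culture. ADRA1D, an adrenergic receptor, had 0 to 1.26 CPM in the tumours against 4.73 CPM in the culture, and PLCB4, a phospholipase C that Gq proteins activate, 0.948 to 2.41 against 8.27 CPM. HRH2 and ADRA1D passed the filter on low values only through the culture, so that their being lower in the tumours was fixed by that filter. With 1 culture library none of these differences has a replicate check. Between recurrent and primary tumours, DRD2 stood at 14.6 ± 6.97 TMM-scaled CPM in recurrent and 10.9 ± 3.72 in primary tumours (SD, n = 3 each; edgeR adjusted p = 0.731).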
